A study of Mus musculus with 2 samples.

Results

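The nuclear genes that encode subunits of the mitochondrial respiratory chain were followed through the cell types of the embryonic mouse coronal suture. Members were all genes whose symbols carry the root of a complex I, II, III or IV subunit (Nduf with a, b, c, s or v and a number, Sdha to Sdhd, Uqcr, and Cox4 to Cox8), that were listed in both gene annotations under the same Ensembl identifier and that were not named as pseudogenes. This gave 67 of 27514 shared genes, of which 35 belong to complex I, 4 to complex II, 8 to complex III and 20 to complex IV. The rule reads symbols and no measured value, and it leaves out Cyc1 of complex III and Ndufab1 of complex I, which are given with the carriers. A minimum of 50 unique molecular identifiers (UMIs, each standing for 1 captured RNA molecule) in each library was passed by 63 members. The other 4 were Cox6a2 with 21 and 22 UMIs, Cox7b2 with 11 and 14, Cox8b with 3 and 0, and Cox8c with 1 and 1.

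Cells came from the coronal sutures of wild-type C57/BL6 embryos at embryonic stages E15.5 and E17.5 and were captured with the 10x 3′ system, giving 1 deposited matrix, called a library here, per stage. For E15.5, 10 sutures were pooled, digested with collagenase II and dispase, and cleared of dead cells. The E17.5 sutures, taken from 2 litters and handled in 3 batches, were digested with collagenase IV, and flow cytometry gated out dead cells, debris and doublets. The authors' labels give 15 clusters of osteogenic (OG1 to OG4), proliferating osteogenic (PO1 and PO2), ligament-like (LIG), ectocranial (EC1 to EC4) and meningeal (MG1 to MG4) cells. With 1 library a stage there was no test between groups. Levels are CPM, the UMIs of a gene or gene set scaled to the total UMIs of a group of cells, each with an exact 95% Poisson interval that covers counting error only, and a gene was called higher or lower where its ratio passed 1.5-fold in both libraries.

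The respiratory chain sits in the inner mitochondrial membrane. Complex I takes electrons from NADH and complex II takes them from succinate, complex III passes them from ubiquinol to cytochrome c, and complex IV hands them to oxygen, while complexes I, III and IV pump the protons that drive ATP synthase. A small set of subunits is encoded in mitochondrial DNA, and all others, including the whole of complex II, come from nuclear genes. Several complex IV subunits exist in more than 1 form, each from its own gene, with a common form in most tissues and a second form in muscle, lung, testis or cells at low oxygen. Osteoclasts, the bone-resorbing cells of the macrophage lineage, are known for their dense content of mitochondria.

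Promoter windows of 300 bases, from 250 before to 50 after the start of the gene, were found for 53 members in RefSeq (GRCm38.p6). Known motifs of regulators of mitochondrial genes were searched as exact letters on both strands. The NRF1 motif GCATGCGC lay in 7 of the 53 windows (13.2%, against 3.05% of the windows of 27025 genes), the ETS motif CCGGAAG in 11 (20.8% against 9.93%), the YY1 motif AAGATGGCG in 5 (9.43% against 1.64%) and the ERR motif TNAAGGTCA in 2 (3.77% against 1.43%). The core of the hypoxia response element, ACGTG, lay in 11 (20.8% against 21.8%). The windows of Sdhb, Uqcrc1, Sdhd and Cox7a1 are given as examples with matches among genes that differ between osteoclasts and other cells, and that of Uqcrfs1 as one without any, and capitals mark the matches on either strand. Sdhb (chr4:140961021-140961320, + strand) holds an NRF1 and an ETS match, Uqcrc1 (chr9:108936398-108936697, + strand) an NRF1 match on both strands, Sdhd (chr9:50603800-50604099, - strand) an ETS and an ERR match, and Cox7a1 (chr7:30183921-30184220, + strand) an ACGTG match. Uqcrfs1 (chr13:30545267-30545566, - strand) holds none, and Cox5a, whose window is not printed, holds ACGTG alone.
Sdhb: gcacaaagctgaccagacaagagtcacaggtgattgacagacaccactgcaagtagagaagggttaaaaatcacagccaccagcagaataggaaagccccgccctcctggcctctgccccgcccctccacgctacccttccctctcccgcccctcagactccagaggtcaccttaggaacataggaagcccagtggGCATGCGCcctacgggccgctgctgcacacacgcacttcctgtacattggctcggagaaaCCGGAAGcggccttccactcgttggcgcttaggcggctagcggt
Uqcrc1: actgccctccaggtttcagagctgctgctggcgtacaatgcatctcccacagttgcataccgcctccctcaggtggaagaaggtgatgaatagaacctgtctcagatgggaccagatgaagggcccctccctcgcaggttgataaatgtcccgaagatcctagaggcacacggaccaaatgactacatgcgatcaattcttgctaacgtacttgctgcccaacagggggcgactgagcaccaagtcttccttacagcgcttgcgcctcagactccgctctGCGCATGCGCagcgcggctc
Sdhd: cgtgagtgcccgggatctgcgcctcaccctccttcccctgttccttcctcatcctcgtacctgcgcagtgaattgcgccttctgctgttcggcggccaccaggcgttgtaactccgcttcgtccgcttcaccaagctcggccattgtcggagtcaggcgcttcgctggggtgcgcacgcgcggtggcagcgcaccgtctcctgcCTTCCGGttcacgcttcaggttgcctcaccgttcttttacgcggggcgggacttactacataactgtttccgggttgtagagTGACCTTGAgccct
Cox7a1: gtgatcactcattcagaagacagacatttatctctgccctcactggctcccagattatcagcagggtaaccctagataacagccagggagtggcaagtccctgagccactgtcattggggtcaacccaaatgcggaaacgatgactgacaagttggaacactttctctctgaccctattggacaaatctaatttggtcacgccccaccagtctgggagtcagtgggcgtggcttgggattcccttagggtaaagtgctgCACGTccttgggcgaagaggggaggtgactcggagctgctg
Uqcrfs1: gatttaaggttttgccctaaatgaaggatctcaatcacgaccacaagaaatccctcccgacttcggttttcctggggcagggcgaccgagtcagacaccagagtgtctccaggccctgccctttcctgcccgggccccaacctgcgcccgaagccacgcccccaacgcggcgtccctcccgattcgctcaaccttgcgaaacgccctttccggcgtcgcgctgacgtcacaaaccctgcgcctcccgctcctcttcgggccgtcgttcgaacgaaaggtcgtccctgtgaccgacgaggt
These matches describe letters in a window and say nothing of whether a factor binds there.

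In the order E15.5 and E17.5, which is kept for all paired values, the labelled cells numbered 5335 and 6830 and had a median of 8510 and 12302 UMIs. Unlabelled cells in which Acp5 and Mmp9, the acid phosphatase and gelatinase of osteoclasts, together had at least 20 UMIs were taken as osteoclasts. There were 92 and 67 of them, with a median of 19814 and 22053 UMIs. Ctsk, the collagen-degrading protease of osteoclasts, was at 2065 and 2667 CPM in them against 206 and 318 CPM in labelled cells, and Atp6v0d2, a subunit of their proton pump, was at 432 and 535 CPM against 0.535 and 0.670 CPM. Col1a1, the collagen gene of the surrounding mesenchyme, had UMIs in 83 of 92 and 67 of 67 osteoclasts, at 411 and 1251 CPM against 6462 and 10829 CPM in labelled cells, so that a UMI alone does not tell the cells apart. Of 8 osteoclast markers, 8 and 7 were at least 2-fold above the labelled cells. The summed level of the osteoblast marker list was 44.0 and 137 CPM in osteoclasts against 1841 and 2130 CPM in labelled cells. The C1q macrophage list was at 214 and 377 CPM in osteoclasts against 2549 and 4137 CPM in the C1q-high cells described later. In labelled cells this list was at 7.45 and 25.1 CPM. Most of it in osteoclasts was Csf1r, at 203 and 349 CPM. The neutrophil genes Ngp and Camp were at 0 in osteoclasts of both libraries. Both libraries share 190 barcode sequences, 94 of them among the cells kept, and the E17.5 matrix joins 3 sets of barcodes that could not be tied to the 3 batches.

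Osteoclasts held the highest summed level of the respiratory chain genes of any group. At E15.5 the 67 genes summed to 34397 CPM in osteoclasts and 16993 CPM in labelled cells, a ratio of 2.02 (95% interval 2.01 to 2.04). At E17.5 the levels were 37457 and 19704 CPM, a ratio of 1.90 (1.89 to 1.92). The intervals of the groups lay far apart in both libraries. The ratio was 1.83, 1.94 and 1.95 in the 3 barcode sets of the E17.5 library, which hold 19, 23 and 25 osteoclasts. Per cell, the genes took a median of 3.45% and 3.60% of the UMIs of an osteoclast against 1.64% and 1.87% of those of a labelled cell. The spread was wide, and 80 of 92 and 58 of 67 osteoclasts lay above the 95th percentile of labelled cells. Osteoclasts were also deeper than labelled cells. With each cell thinned to 3000 UMIs the ratio was 2.03 and 2.07. Thinning gives cells equal weight but keeps the expected share of the genes in each cell, so it cannot show what depth contributes.

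**Figure D1:**
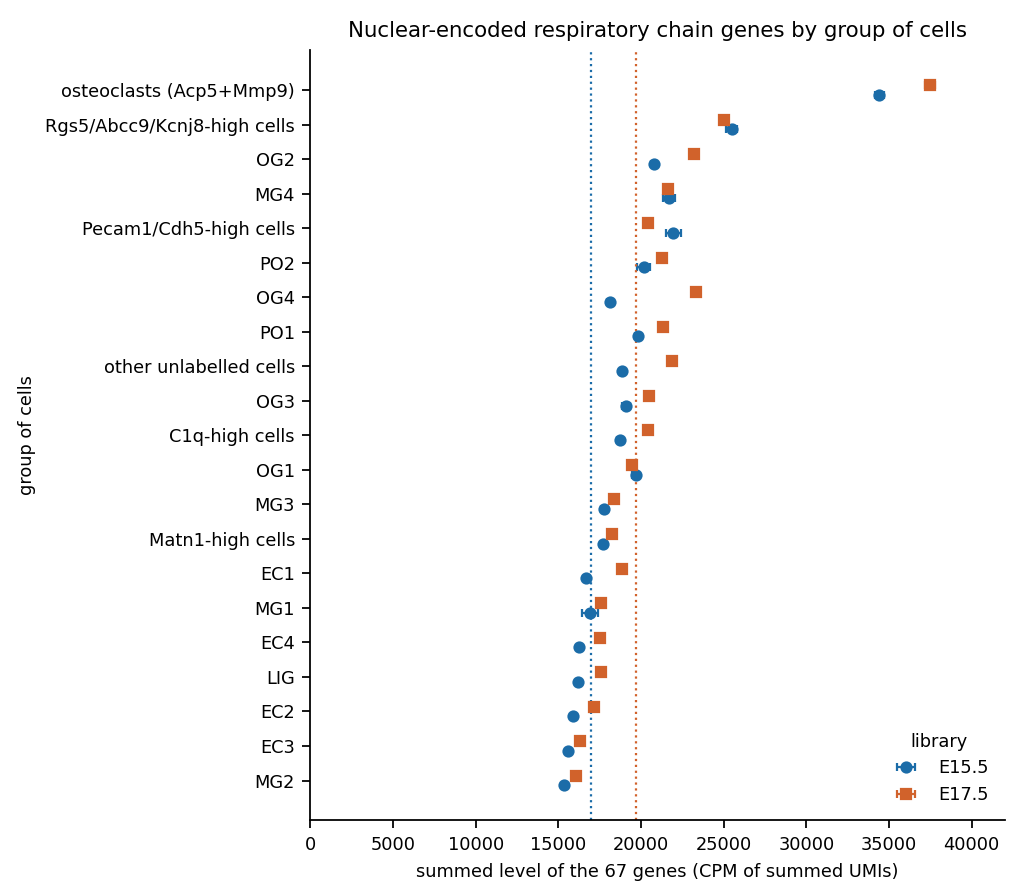
Summed level of the 67 respiratory chain genes (CPM, linear axis from 0) in 21 groups of cells of the E15.5 library (circles) and the E17.5 library (squares), with exact 95% Poisson intervals. Dotted lines mark all labelled cells of each library, and osteoclasts stand at 34397 and 37457 CPM, to the right of every other group.

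Unlabelled cells rich in the pericyte genes Rgs5, Abcc9 and Kcnj8 (64 and 151 cells) came next, with 25469 and 25003 CPM. Among the 15 labelled clusters of the E15.5 library, MG4 (21679 CPM) and OG2 (20751 CPM) were highest, followed by PO2, PO1 and OG1, whose intervals overlap. In the E17.5 library OG4 (23304 CPM) and OG2 (23204 CPM) came first and did not differ beyond their intervals, followed by MG4, PO1 and PO2. EC3 (15605 and 16321 CPM) and MG2 (15359 and 16080 CPM) were lowest, and at E17.5 their intervals overlap. The order over the 15 clusters was alike in the libraries (Spearman rho = 0.90, n = 15 clusters that share a library each, a description without a test). The cluster levels followed those of ATP synthase genes (rho = 0.92 and 0.94) and, at E17.5, those of glycolysis genes (0.69 and 0.93), and less so the summed level of the mitochondrially encoded genes (0.18 and 0.60) or the median UMI count (0.26 and 0.49).

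Gene by gene, 46 of the 63 members were higher in osteoclasts than in labelled cells in both libraries and 3 were lower (2 in thinned cells and with barcode set 2 alone, Cox4i2 being lost), while of 12276 genes compared 15.3% were higher and 31.1% lower. The median member stood at a log2 ratio of 1.04 and 0.95, whereas the median of all genes stood at -0.21 in both libraries. Complex II was higher as a whole, complex III all but 1 gene, and complexes I and IV in part.

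Complex I, the entry point for NADH, had 23 of 35 genes higher and none lower. Ndufs8, a core subunit that carries iron-sulphur centres and was chosen after its values were seen, was at 288 against 87.9 CPM and 261 against 131 CPM (3.28-fold and 1.99-fold). Ndufb8, an accessory subunit of the membrane arm, was at 811 CPM in osteoclasts and 235 in labelled cells in the E15.5 library, and at 681 and 250.5 CPM in the E17.5 library (3.45-fold and 2.72-fold). Ndufb8 shares near-identical sequence with Gm20538, an annotated gene that overlaps it on the same strand, and reads could be divided between them. At the other end Ndufb11, another membrane arm subunit, was at 322 against 298 CPM and 359 against 315 CPM (1.08-fold and 1.14-fold), so that the subunits of this complex did not move by the same factor.

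Complex II, succinate dehydrogenase, had all 4 genes higher, with a summed ratio of 2.98 and 2.97. Sdhb, its iron-sulphur subunit, was at 617 CPM in osteoclasts against 170 in labelled cells, and in the later library at 654 against 187 (3.63-fold and 3.49-fold). Sdha, the flavoprotein, was at 219 against 79.4 CPM and 299 against 104 CPM (2.75-fold and 2.88-fold). The membrane anchors Sdhc (2.25-fold and 2.79-fold) and Sdhd (2.73-fold and 2.47-fold) changed by a similar factor. This complex had the highest summed ratio of the 4 in both libraries.

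Complex III had 7 of 8 genes higher, with a summed ratio of 2.55 and 2.31. Uqcrfs1, the Rieske iron-sulphur protein, was at 514 against 136 CPM and 580 against 170 CPM (3.78-fold and 3.41-fold). Uqcrq, a small subunit that contacts cytochrome b, was at 997 against 240 CPM and 998 against 340 CPM (4.16-fold and 2.93-fold). The core proteins Uqcrc1 (2.71-fold and 2.73-fold) and Uqcrc2 (2.58-fold and 2.68-fold) were close to one another. Uqcrh, the hinge protein near cytochrome c1, was the exception with 1.19-fold and 1.34-fold.

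Complex IV, cytochrome c oxidase, held both the gene with the largest ratio and the only members called lower. Of its 16 genes over the minimum 12 were higher and 3 lower. All 11 common forms were higher, and they included Cox5a (GRCm38, chromosome 9, 57521274 to 57532426, + strand), a subunit that faces the matrix, which was at 1109 against 167 CPM and 1013 against 264 CPM (6.63-fold and 3.84-fold). Cox8a was at 1782 against 661 CPM and 2120 against 803 CPM (2.70-fold and 2.64-fold), while Cox4i1, the largest nuclear subunit, had ratios of 1.78 and 1.90. Cox7a2l, a factor that joins complexes III and IV, was at 1.25-fold and 1.58-fold and did not pass in both libraries. The second forms of subunits behaved apart from the common forms and are described with their partners after the other gene lists.

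**Figure D2:**
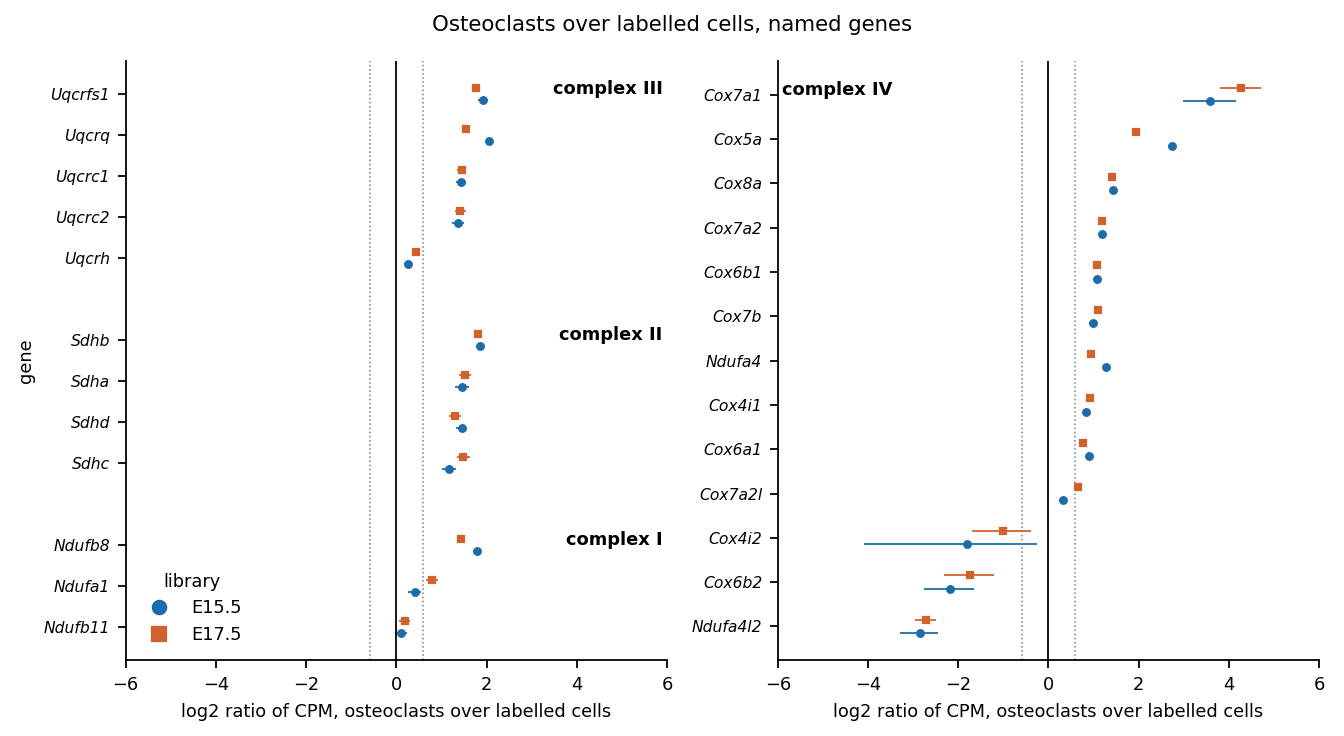
Log2 ratio of CPM, osteoclasts over labelled cells, of the named members in the E15.5 (circles) and E17.5 (squares) libraries, by complex, with 95% intervals from the counts and dotted lines at 1.5-fold. Most members lie to the right of 0, Cox7a1 lies farthest right, and Cox6b2, Ndufa4l2 and Cox4i2, whose E15.5 ratio turns in thinned cells, lie to the left.

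The level of the chain followed the Acp5 and Mmp9 counts of the cells. Cells with 5 to 9 of these UMIs had summed levels of 22422 and 23590 CPM, those with 10 to 19 had 25269 and 24204 CPM, and those with 20 to 39, the first inside the threshold, had 28143 and 26384 CPM. At 40 to 79 UMIs the levels were 36016 and 35629 CPM, and at 80 or more they were 41791 and 44266 CPM. The levels were higher in each successive bin, and the largest step was from 20 to 39 to 40 to 79 UMIs, above the threshold. At E17.5 the intervals of the 5 to 9 bin (23088 to 24100 CPM, 23 cells) and the 10 to 19 bin (23563 to 24858 CPM, 15 cells) overlap. The median UMI count of the cells rose in each successive bin from 15694.5 to 23576 at E15.5. At E17.5 it lay between 13124 and 24070, and the part of cell depth was not tested.

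Genes that act around the chain were compared in the same way, and the shares over all genes, 15.3% higher and 31.1% lower, hold for each list. ATP synthase genes were higher for 14 of 18 (summed ratio 1.99 and 1.94), citric acid cycle genes for 13 of 16 (2.94 and 2.57), and carriers outside the list for 4 of 6 (3.49 and 2.86), among them Cycs, cytochrome c (6.76-fold and 4.02-fold), and Cyc1, cytochrome c1 of complex III (6.17-fold and 3.86-fold). Assembly factors were higher for 14 of 39 and lower for 1 (1.74 and 1.45). Of the 13 mitochondrially encoded genes, which serve complexes I, III and IV and ATP synthase, only mt-Nd1 and mt-Nd2 passed 1.5-fold in both libraries (summed ratio 1.32 and 1.36). Osteoclasts had to pass limits on the share of mitochondrial and haemoglobin UMIs, which left out 21 and 1 of them. Labelled cells were kept by their label, and 93 and 0 of them lay outside the limits set for unlabelled cells. How far the limits set here lower the mitochondrially encoded ratio was not tested. Ribosomal protein genes had 0 of 81 called (1.09 and 1.01). Of 9 regulators of mitochondrial biogenesis 3 were higher. Ppargc1b, a coactivator of such genes, was at 70.6 against 2.04 CPM and 61.0 against 3.2 CPM, or 34.7-fold (26.5 to 45.4) and 19.1-fold (14.998 to 24.1). Its partner Esrra was at 51.5 against 10.2 CPM and 36.9 against 8.17 CPM. Its relative Ppargc1a had 0 UMIs in osteoclasts of both libraries.

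**Figure D3:**
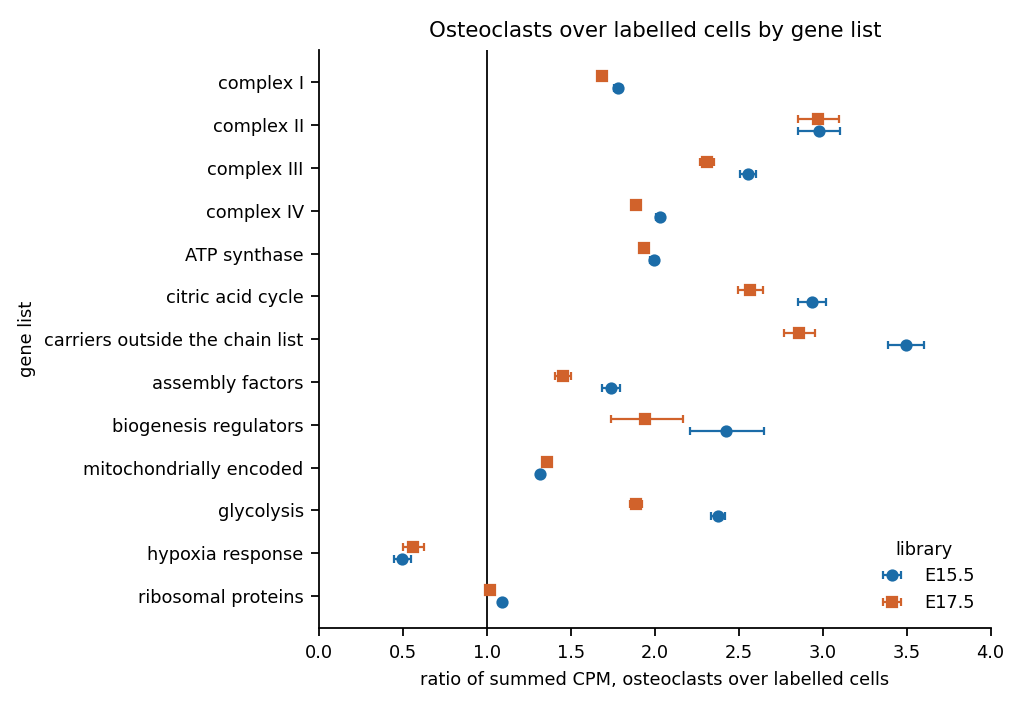
Ratio of the summed CPM of gene lists, osteoclasts over labelled cells, in the E15.5 (circles) and E17.5 (squares) libraries, with 95% intervals from the counts on a linear axis. Complex II and the citric acid cycle lie between 2.5 and 3, the mitochondrially encoded genes at 1.32 and 1.36 and the ribosomal protein genes near 1. Osteoclasts were held here to a limit on the share of mitochondrial UMIs, and labelled cells were kept by label after the study's own limit.

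Osteoclasts were set against the other macrophage-lineage cells, the unlabelled cells rich in C1q transcripts (285 and 561 cells). The summed level of the chain was 1.84-fold and 1.83-fold higher in osteoclasts, and 48 of 63 members were higher and 0 lower (10.9% and 16.1% of all genes compared were higher and lower). The median member stood at 0.86 and 0.84 on the log2 scale against -0.06 and -0.05 for all genes. C1q-high cells themselves were close to labelled cells, with a summed ratio of 1.10 and 1.04, 4 members higher and 3 lower (15.4% and 28.9% of genes). Ndufa4l2 (1.54-fold and 0.985-fold) and Cox6b2 (0.709-fold and 0.826-fold), lower against labelled cells, were not called against these cells of the same lineage. Col1a1 of the mesenchyme was at 411 and 1251 CPM in osteoclasts and at 1095 and 1552 CPM in C1q-high cells. How far RNA from mesenchyme makes up the low Ndufa4l2 and Cox6b2 levels of both groups was not tested.

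The second forms of the complex IV subunits differed between cell types by far more than the rest of the chain. Cox7a1, the heart and muscle form of COX7A, was at 19.6 CPM in osteoclasts against 1.65 in labelled cells, and in the later library at 35.6 against 1.85, or 11.9-fold (7.85 to 17.8) and 19.3-fold (14.0 to 26.2) on 37 and 56 UMIs. It made up 1.83% and 3.21% of the UMIs of Cox7a1 and its common partner Cox7a2 in osteoclasts, 2.04% and 2.75% in C1q-high cells, 2.23% and 3.94% in Rgs5-high cells, and 0.353% and 0.392% in labelled cells. The form was thus a small part of the pair everywhere.

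Ndufa4l2, the hypoxia-linked relative of Ndufa4, was lower in osteoclasts, at 26.0 against 188 CPM and 95.3 against 627 CPM (0.138-fold and 0.152-fold). Cox6b2, the testis form of COX6B, was at 15.4 against 69.5 CPM and 18.4 against 61.3 CPM (0.221-fold and 0.301-fold), and over the 3 barcode sets at E17.5 its log2 ratio ran from -3.90 to -1.10. Cox4i2, the oxygen-regulated form of COX4 known from lung and pericytes, had 3 UMIs in E15.5 osteoclasts, which gives a ratio of 0.286 (0.0585 to 0.843), and a ratio of 0.497 (0.307 to 0.762) at E17.5. Its direction was not stable, since in cells thinned to 3000 UMIs the log2 ratio at E15.5 turned from -1.81 to 0.40, and at E17.5 it ran from -3.67 in barcode set 1 to -0.24 in barcode set 2, where Cox4i2 was not called. The hypoxia response list, which holds none of the members, had 0 of 10 genes higher and 4 lower in osteoclasts (P4ha1, Ndrg1, Egln3 and, on 2 and 0 UMIs, Adm), beside 15.3% of all genes higher and 31.1% lower.

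Cox4i2 (GRCm38, chromosome 2, 152754173 to 152765037, + strand) was highest in Rgs5-high cells, at 387 against 5.58 CPM in labelled cells and, in the later library, 639 against 26.9 CPM (69.5-fold and 23.8-fold). It made up 19.8% and 30.6% of the UMIs of the COX4 pair there, and 0.462% and 2.26% in labelled cells. Ndufa4l2 made up 79.3% and 87.8% of its pair in the same cells, against 31.2% and 49.98% in labelled cells, and Ndufa4 itself was lower there (0.542-fold and 0.360-fold). In Rgs5-high cells 9 of 63 members were higher and 1 lower (12.7% and 14.8% of genes), and Cox4i2, Cox7a1 and Ndufa4l2 had the largest ratios.

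**Figure D4:**
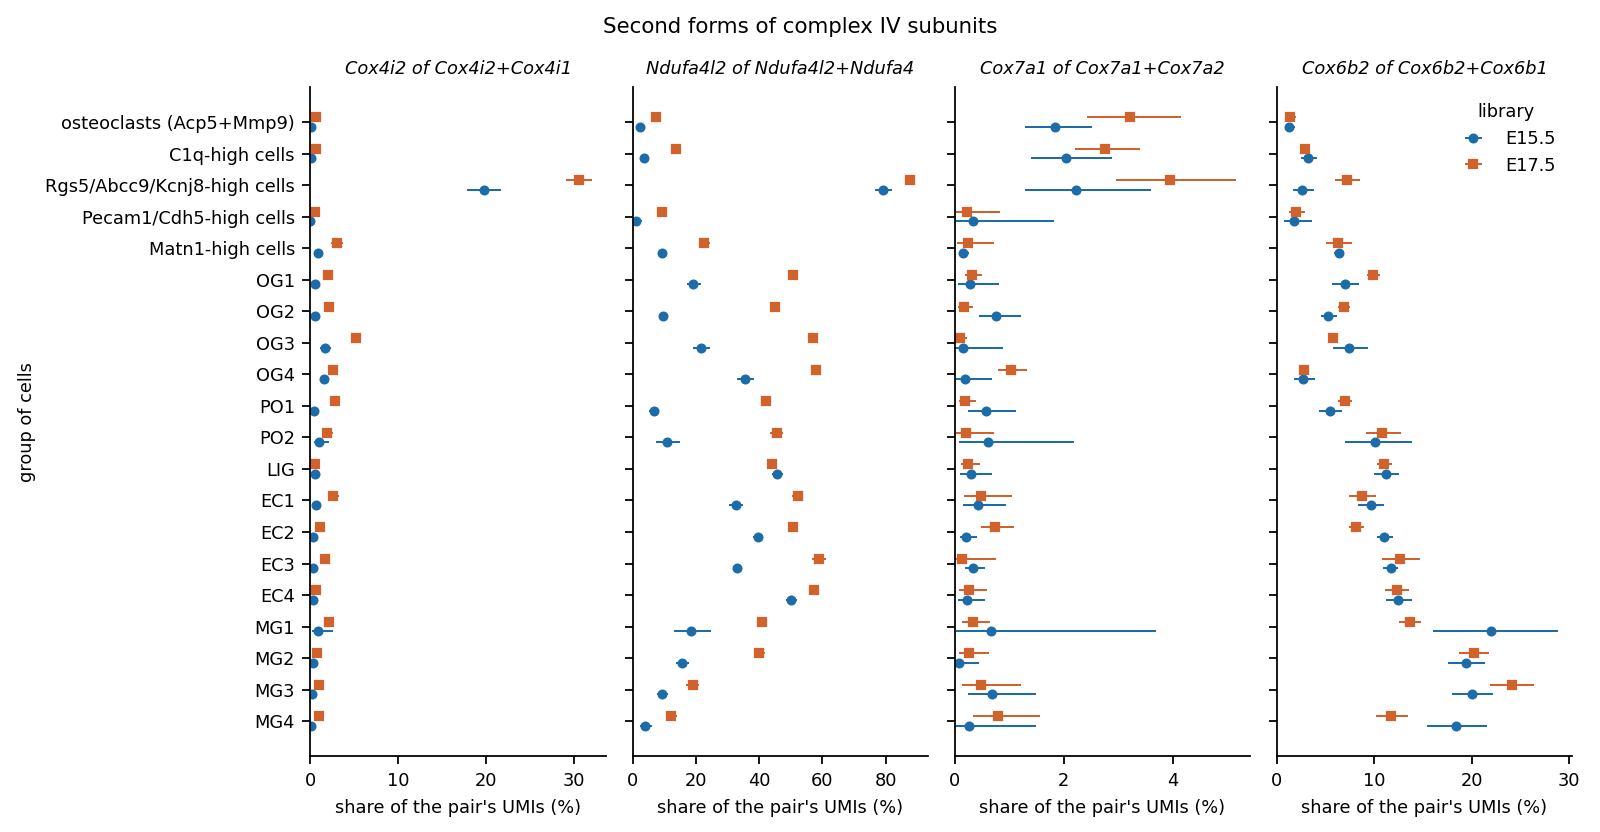
Share (%) of the UMIs of a subunit pair that came from its second form, for Cox4i2, Ndufa4l2, Cox7a1 and Cox6b2, by group of cells in the E15.5 (circles) and E17.5 (squares) libraries, with exact 95% binomial intervals. Cox4i2 and Ndufa4l2 peak in Rgs5-high cells, and Cox6b2 has its largest shares in the meningeal clusters MG1, MG2 and MG3.

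Among the labelled clusters the same genes varied most. Cox6b2 was higher in MG2 (1.68-fold and 2.00-fold over the other labelled cells), MG3 (2.19-fold and 2.81-fold) and MG4 (2.59-fold and 1.55-fold), the meningeal clusters in which Ndufa4l2 was lower (0.345-fold and 0.415-fold in MG2, 0.275-fold and 0.217-fold in MG3, 0.142-fold and 0.166-fold in MG4). In these clusters 5.89%, 7.51% and 6.49% of genes were higher and 11.8%, 14.0% and 9.78% lower. Cox4i2 was higher in OG3 (4.55-fold and 3.34-fold, with 1.99% of genes higher), at 23.2 and 67.6 CPM, where 9.71% of genes were lower. It was lower in EC2 (0.493-fold and 0.368-fold; 6.12% and 9.56% of genes higher and lower) and EC3 (0.612-fold and 0.638-fold; 4.35% and 6.48%), while its low ratios in MG2, MG3 and MG4 rest on 10, 6 and 1 UMIs at E15.5. Cox5a was higher in PO1 (2.09-fold and 1.54-fold, with 8.19% and 12.0% of genes higher and lower) and lower in EC3 (0.586-fold and 0.568-fold). In OG2 Cox5a was at 1.77-fold and 1.48-fold, short of the limit in the E17.5 library only. Cox7a1 was called lower in EC4 (3.53% and 5.93% of genes), MG2 and OG3 on 4, 1 and 1 UMIs. The OG3 count is that of E15.5, and the E17.5 count was 6 UMIs. No member was called in EC1 (2.44% and 3.56% of genes higher and lower), LIG (2.38% and 6.87%), MG1 (3.88% and 8.64%), OG1 (1.33% and 7.60%), OG2 (2.54% and 11.7%) or PO2 (6.67% and 13.9%).

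The osteogenic clusters were set against one another because the study placed OG1 and OG4 at the early and late ends of the osteogenic lineage. At E15.5 the summed level of the chain was 18106 CPM in OG4 and 19670 CPM in OG1, a ratio of 0.920 (0.907 to 0.934). At E17.5 it was 23304 against 19460 CPM, a ratio of 1.20 (1.19 to 1.20), and the 3 barcode sets gave 1.18, 1.20 and 1.21. The libraries thus differed in direction, and this was not tested. Scaled by the median of ratios of all genes instead, the ratio was 1.30 and 1.29. The median of all 6527 genes was shifted to -0.50 and -0.11 on the log2 scale, and the median member lay at -0.32 and 0.19, which is 0.18 and 0.30 above it in the respective library. The median UMI count of OG4 cells was 7352 at E15.5 and 19349 at E17.5, against 6836 and 10896 in OG1. In cells thinned to 3000 UMIs, which weights cells equally and does not test depth, the ratio was 0.867 and 1.20. The mitochondrially encoded genes had ratios of 1.44 and 1.07.

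Between OG4 and OG1, 3 of 61 members were higher in both libraries and 1 was lower (9.15% of genes were higher and 16.0% lower). Ndufa1, an accessory subunit of complex I on the X chromosome, was at 446.5 against 172.7 CPM and 276 against 138 CPM (2.59-fold and 2.00-fold). Cox6a1, the common form of COX6A, was at 842 against 446 CPM and 952 against 571 CPM (1.89-fold and 1.67-fold), and Ndufa4l2 was at 249 against 119 CPM and 1057 against 640.5 CPM. Cox6b2 was lower, at 13.8 against 48.9 CPM and 20.8 against 65.6 CPM (0.283-fold and 0.317-fold). Against all other labelled cells, OG4 had Ndufa1 (3.204-fold and 1.95-fold), Uqcrq (2.04-fold and 1.82-fold) and Cox6a1 (1.73-fold and 1.56-fold) higher and Cox6b2 lower, with 6.03% of genes higher and 25.7% lower.

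Between the stages the chain was slightly higher at E17.5. In all labelled cells the summed level was 1.16-fold that of E15.5. Within clusters the ratio was 0.989-fold to 1.13-fold in 14 of 15 and 1.29-fold in OG4. Its interval, which covers counting error only, lay above 1 in 13 clusters. The level of labelled cells at E17.5 was 18694, 20068 and 19759 CPM in the 3 barcode sets. Without the second forms of complex IV subunits the summed ratio was 1.14 in all labelled cells, 1.25 in OG4 and 0.961 to 1.10 in the other clusters. The median member lay below a log2 ratio of 0 in MG1, MG4, OG1 and OG3. The mix of clusters also differed, with EC3 at 1185 and 194 cells, OG1 at 261 and 1010 and OG3 at 140 and 927. The levels were 16993 and 19704 CPM. Stage, digestion, sorting, embryos and the annotation and counting version differ together and cannot be told apart. The median member had a log2 ratio of 0.08 (median over clusters) against -0.05 for all genes, and lay above all genes in 13 of 15 clusters. In all labelled cells 6 of 63 members were at least 1.5-fold higher and 0 were at least 1.5-fold lower (12.9% and 19.2% of 12150 genes). Cox4i2 (4.82-fold, higher in 14 of 15 clusters) and Ndufa4l2 (3.33-fold, in 15) led, followed by Uqcrb (1.76-fold, in 15), a ubiquinone-binding subunit of complex III, Cox5a (1.58-fold, in 13), Ndufb7 (1.56-fold, in 15) and Ndufa4 (1.51-fold, in 14). Cox4i1 was at 0.968-fold and above 1 in 0 clusters, so the common and second forms of COX4 went apart. Uqcrb and Ndufb7 lie outside the rule for named genes and were chosen after their values were seen. Uqcrb has 3 near-identical annotated copies and Cox5a has 1, and their part in these stage ratios was not tested.

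The difference between stages was largest in OG4. There the median member was at 0.50 on the log2 scale, while the median of all genes was at 0.15, and the summed level was 1.29-fold that of E15.5. Of 59 members 26 were at least 1.5-fold higher and 1, Ndufa1, was lower (25.1% and 16.8% of 3568 genes). By complex, 13 of 34 genes of complex I, 3 of 4 of complex II, 6 of 8 of complex III and 4 of 13 of complex IV were higher. Ndufa4l2 was 4.24-fold and Uqcrb 2.37-fold higher, and Uqcrc1 was at 203 against 98.9 CPM (2.06-fold). The mitochondrially encoded genes were lower at E17.5 in OG4 alone among the 15 clusters, at 0.914-fold, and at 1.02-fold or above in the others. The chain was at 0.998-fold in MG4 and 0.989-fold in OG1, with intervals that include 1. The mitochondrially encoded genes were at 1.11-fold and 1.23-fold in these 2 clusters.

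**Figure D5:**
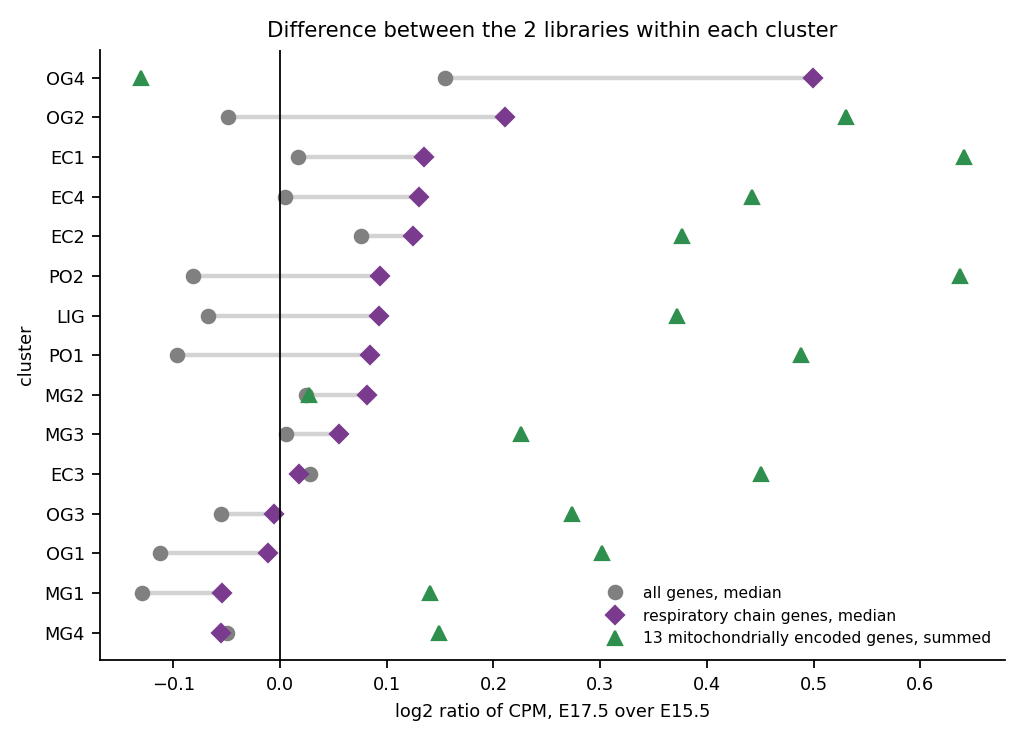
Log2 ratio of CPM, E17.5 over E15.5, within each labelled cluster, for the median of all genes (circles), the median respiratory chain gene (diamonds) and the 13 mitochondrially encoded genes summed (triangles). OG4 has the highest median of members, 0.50, and is the only cluster whose mitochondrially encoded sum lies below 0.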

How the data were processed

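Cells were captured with the 10x 3′ system. The authors deposited raw counts of UMIs per gene and barcode, and a table of cluster labels and the percent of mitochondrial UMIs per cell. The E15.5 matrix header names another Cell Ranger version, 3.1.0, than the study's methods, and 5335 of 5335 labelled cells at E15.5 hold fewer UMIs than in the authors' table (at E17.5, 6830 of 6830 are equal), and the submitters' notes name FastQC 0.11.7, MultiQC 0.9 and Seurat 3.2.0. Unlabelled barcodes needed 1000 UMIs and 1000 genes, with no more than 7.5% of UMIs mitochondrial and 3% from Hbb or Hba. Of 5340 labels at E15.5, 5 had no barcode in the matrix. Labelled cells held 48607817 and 92585034 UMIs. No doublet caller was run. Sums were made with Python 3.11.15, numpy 2.4.6, scipy 1.17.1 and pandas 2.3.3, checked on simulated data and drawn with matplotlib 3.10.9. BLAST 2.17.0 found a GENCODE copy (at least 95% identity over 100 of the last 300 bases) for 16 members, and 8 members overlap a gene on their strand, so their reads may be divided. Genes with under 50 UMIs in a library were not compared. The named genes were the 10 members with the largest and the 5 with the smallest osteoclast ratio, complex II, the subunit pairs and the 5 with the largest range over clusters. Members, lists and motifs were chosen with earlier results of these data known. Alternatives covered scaling, depth, thresholds, barcode sets and copies.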

Additional observations from a re-analysis of the deposited data

Results flagged for a closer look

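The summed level of the respiratory chain genes in OG4 over OG1 was 0.920 at E15.5 and 1.20 at E17.5. It stood out because the libraries lay on opposite sides of 1, and the difference between them was not tested.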

How the results depend on the processing

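The osteoclast to labelled ratio (2.02 and 1.90) kept its direction in all alternatives that were run. It was 2.04 and 2.03 as the mean of per-cell CPM, 2.07 at E17.5 with cells thinned to 3000 UMIs, 2.099 and 1.94 without ribosomal, mitochondrial and haemoglobin genes in the total, 2.21 and 2.09 scaled by median of ratios, 1.94 at E17.5 without the deepest cells, 2.00 at E15.5 without copied genes of either kind, 1.98 at E15.5 without the share limits, 2.27 and 2.13 with at least 40 UMIs of Acp5 and Mmp9, 1.88 and 1.82 with at least 10, and 1.96 at E17.5 without cells in another gate. With a Ctsk minimum, chosen after seeing the data, it was 2.18 and 2.11. Barcode sets gave 1.83, 1.94 and 1.95. The count of 46 higher members was 28 at a 2-fold limit, 34 of 47 without members that have an annotated copy, and otherwise 42 to 51. The OG4 to OG1 ratio at E15.5 (0.920) was 0.852 per cell, 0.867 thinned, 0.852 with the reduced total and 0.875 without the deepest cells, and it turned to 1.30 scaled by median of ratios. At E17.5 (1.20) it was 1.14 with the reduced total, 1.29 by median of ratios, 1.21 without the deepest cells, 1.18 without annotated copies (added after seeing the data) and 1.18 and 1.21 in barcode sets 1 and 3. The stage median (0.084) was 0.0798 per cell, 0.0790 thinned, 0.0488 with the reduced total, 0.102 by median of ratios, 0.0932 without the deepest cells, and 0.0330, 0.0932 and 0.110 in the barcode sets. Cox4i2 in osteoclasts at E15.5 turned to a log2 ratio of 0.40 in thinned cells, on few UMIs. The cause of these moves was not tested. No paired analysis was possible because there is 1 library a stage. Depth limits Cox4i2, Cox7a1 and the 4 members under the minimum.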

Other observations

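Glycolysis genes were also higher in osteoclasts as a list, with a summed ratio of 2.38 and 1.89 over labelled cells, 7 of 16 higher and 2 lower (15.3% and 31.1% of all genes). Aldoc, Pfkp and Eno1 were among those higher, and Eno2 and Pfkm were the ones lower.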
